A study of Homo sapiens with 22 samples.

Results

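Cluster 11 is a group of 355 cells out of 40021 in a scRNA-seq experiment on WM989, a melanoma cell line grown from a bottlenecked single-cell clone. Its members are the cells to which the authors' own clustering of the transcriptomes gave the number 11, and no cell was added or removed here. The authors placed it among the drug-susceptible cells, meaning the cells that were not in the primed, drug-tolerant state. The cluster is rich in transcripts of ribosomal proteins and comes mostly from cells given an inhibitor of PI3K.

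The study asked whether signalling agents move melanoma cells between the drug-susceptible and the primed state. WM989 cells carrying heritable lineage barcodes were expanded and split over 4 plates, and the plates were left untreated (Control) or given TGFB1, a ligand of the TGF-beta receptor, TGFBRi, the receptor inhibitor LY2109761, or PI3Ki, the PI3K inhibitor GDC-0941. Each treatment has 2 libraries, named r1 and r2 in the cell labels. The sample labels carry the prefixes Mix and Primed instead and do not say what these name, while the study's methods call the 2 parallel samples replicates. Which prefix belongs to r1 was not settled. If the prefixes name unlike starting cells, a difference between r1 and r2 can be one between those. All groups share the cell line, the lineage barcodes and the expansion before the split.

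The ribosome is built from RNA and from proteins of its large (RPL) and small (RPS) subunits, and their messages are among the most abundant of a growing cell. Most of these messages start with a C followed by a run of pyrimidines, the 5′ terminal oligopyrimidine (TOP) motif, through which mTOR signalling downstream of PI3K controls their translation and stability. In melanoma cells PI3K and AKT signalling act beside the BRAF and MAPK pathway, and a loss of PI3K signalling releases FOXO factors and slows growth.

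The 3 ribosomal protein genes that mark the cluster are shown first because the text returns to them. Their RefSeq sequences in GRCh38.p14 are given 5′ to 3′ on the gene's own strand, from 10 bases before to 20 bases after the annotated start of transcription, and capitals mark a C followed by at least 4 pyrimidines that begins within 5 bases of that start.
RPL12: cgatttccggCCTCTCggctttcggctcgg
RPL34: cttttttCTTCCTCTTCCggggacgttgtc
RPS12: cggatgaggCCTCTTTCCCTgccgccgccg
The RPL12 sequence lies at chr9:127451387-127451416 on the minus strand, that of RPL34 at chr4:108620566-108620595 on the plus strand and that of RPS12 at chr6:132814559-132814588 on the plus strand. Such a run was found in 51 of the 63 ribosomal protein genes with a start in the table (81.0%) and in 5749 of all 27305 promoters (21.1%). Among genes expressed at 50 counts per 1e6 UMIs (CPM) or more the run was found in 593 of 2324 (25.5%). A match describes the letters at the annotated start and is not a measurement of it.

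The members were spread very unevenly over the libraries. PI3Ki r2 held 271 of the 355 cells (76.3%), TGFBRi r2 held 45, PI3Ki r1 held 15, TGFBRi r1 held 9, Control r2 held 7, TGFB1 r1 and TGFB1 r2 held 3 each, and Control r1 held 2. As a share of the drug-susceptible cells this was 4.75% in PI3Ki r2, with an exact 95% interval of 4.21 to 5.33 that covers counting error only. In PI3Ki r1, given the same agent, the share was 0.391% (0.219 to 0.644), and in TGFBRi r2 it was 0.750% (0.547 to 1.0). The other 5 libraries lay between 0.0493% and 0.198%. The r2 libraries together held 326 of the members (91.8%). By number of cells the working name of PI3K inhibitor cells therefore describes 1 library above all. Within r1 the share was 0.0493% in Control, 0.0781% in TGFB1 and 0.176% in TGFBRi. PI3Ki thus had the highest share in r1 as in r2, though PI3Ki r1 lay below TGFBRi r2. By contrast cluster 6, another drug-susceptible cluster rich in PI3Ki cells, made up 28.8% of PI3Ki r1 and 19.9% of PI3Ki r2. In the other libraries it made up between 0.312% and 3.18%. Cluster 9 also drew many of its cells from PI3Ki r2, 557 of 1571. Since the genes that set the clusters can themselves differ between treatments, these shares are a description with no test.

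The libraries held between 70239657 and 122420544 unique molecular identifiers (UMIs), PI3Ki r2 being the deepest, with medians of 13013 to 21720 UMIs per cell. Of all cells, 388 (0.969%) had a 10x cell barcode that also occurred in another library, and 2 members of cluster 11 were among them.

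**Figure D1:**
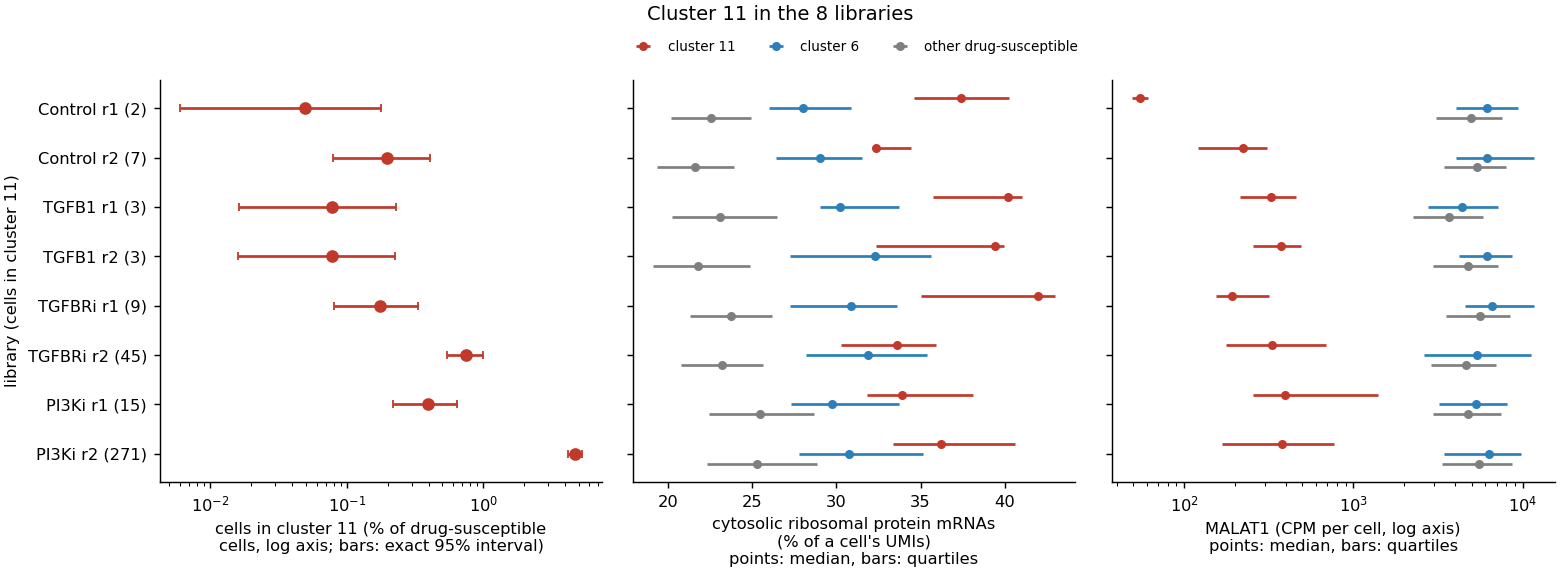
The plot gives, for each of the 8 libraries, the percent of drug-susceptible cells in cluster 11 on a log axis with exact 95% intervals, and per-cell medians with quartiles of the percent of UMIs in ribosomal protein genes and of the MALAT1 level in CPM on a log axis. PI3Ki r2 stands at 4.75% while the other libraries stay at 0.750% or below, and in all 8 libraries the ribosomal median of cluster 11 lies above and its MALAT1 median below those of the other cells.

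Members of cluster 11 were deep cells with a high share of ribosomal protein messages. Their median was 30290 UMIs per cell, with quartiles of 22848 and 37218 and a range from 6637 to 65276, against 16843 in cluster 6 and 16770 in the other drug-susceptible cells, which here and in all that follows include cluster 6. Ribosomal protein genes took a median of 35.6% of a member's UMIs (quartiles 32.7 and 40.2), against 30.1% in cluster 6 and 23.4% in the other drug-susceptible cells. The 9 remaining drug-susceptible clusters had medians from 20.7% to 24.3% and so lay below both. By library the ribosomal median of cluster 11 was 37.4% in Control r1, 32.4% in Control r2, 40.2% in TGFB1 r1, 39.4% in TGFB1 r2, 42.0% in TGFBRi r1, 33.6% in TGFBRi r2, 33.9% in PI3Ki r1 and 36.2% in PI3Ki r2. The other cells of the same libraries had medians between 21.6% and 25.5%, so that the cluster stood above them in all 8. Within PI3Ki r2 the median member had a higher ribosomal share than 95% of the other drug-susceptible cells and more UMIs than 93.5% of them.

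Members had more genes than cluster 6 and the pooled other drug-susceptible cells as deposited, and fewer at equal depth. A member had a median of 4821 genes, against 3799 in cluster 6 and 4102 in the other drug-susceptible cells. When each cell was thinned to 5000 UMIs, the order turned, with 1647 genes in cluster 11, 1757 in cluster 6 and 1960 in the others. As deposited, cluster 7 had a higher median than cluster 11, at 4908.5 genes. In PI3Ki r2 the deposited medians were 5328.5 genes in cluster 7 and 4960 in cluster 8, against 4942 in cluster 11. The table holds only cells with 2001 to 5999 genes, after the authors' filter. The percent of mitochondrial UMIs was lower in the cluster, at a median of 7.27, than in cluster 6 at 11.7 and in the others at 10.8. That order held in 6 of 8 libraries, while 7 members in Control r2 had 11.4 against 10.9 and 3 in TGFB1 r2 had 11.9 against 10.3.

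Members had the higher ribosomal share at like depth as well. Among cells of PI3Ki r2 with 10000 to 20000 UMIs, the 43 members had a median of 40.6% and the 2605 other drug-susceptible cells 26.0%. At 20000 to 30000 UMIs the medians were 38.2% and 24.3%, at 30000 to 40000 they were 34.7% and 26.6%, and at 40000 to 70000 they were 35.0% and 30.9%. Only in the deepest band, which held 10 cells of cluster 6, did cluster 6 exceed cluster 11, with 40.4%.

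MALAT1 and MT-ND6 were the genes with the lowest relative level in cluster 11. MALAT1 is a long RNA that stays in nuclear speckles, and its mature 3′ end carries no poly(A) tail. Summed over cells, it stood at 624 CPM in cluster 11 and 6230 CPM in the other drug-susceptible cells of PI3Ki r2, at 613 and 5366 in TGFBRi r2, at 746 and 5568 in PI3Ki r1, and at 437 and 5903 in the other 5 libraries pooled. In each of these sets the cluster lay far below, and the geometric mean over PI3Ki r2 and TGFBRi r2 was 9.34-fold lower. Per cell the median was 350 CPM in cluster 11, 5810 in cluster 6 and 4891 in the others, and the clusters other than 6 and 11 had medians between 4005 and 5918. In PI3Ki r2 only 1.10% of the other drug-susceptible cells lay below the median member.

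At like depth MALAT1 stayed low. In PI3Ki r2 the median was 205 CPM against 5718 at 10000 to 20000 UMIs, 225 against 5782 at 20000 to 30000, and 536 against 3301 at 30000 to 40000. In the deepest band of 40000 to 70000 UMIs it was 437 against 1041, since the 27 other cells of that band were low as well.

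MT-ND6, a subunit of respiratory complex I, is the protein gene on the light strand of the mitochondrial genome, at chrM:14149-14673 on the minus strand. It stood at 42.9 CPM in cluster 11 and 287 in the other drug-susceptible cells of PI3Ki r2, at 65.8 and 397 in TGFBRi r2 and at 81.7 and 317 in PI3Ki r1. The cluster was lower in each library, by 6.32-fold in the mean over PI3Ki r2 and TGFBRi r2. MT-ND6 lies across from heavy-strand transcripts, so its counts rest on the strand setting of the authors' counting, which was not given in the sources used here.

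Over the whole transcriptome cluster 11 showed more genes below than above the other drug-susceptible cells. Ratios of CPM were formed within PI3Ki r2 and TGFBRi r2, the libraries with at least 20 members, and averaged on the log2 scale for the 2853 genes that reached 50 CPM on either side. Of these, 175 (6.13%) were over 1.5-fold higher in cluster 11 and 930 (32.6%) over 1.5-fold lower, with no test, and the median log2 ratio was −0.28. The split was alike in the libraries taken singly, with 196 higher and 963 lower in PI3Ki r2, 183 and 890 in TGFBRi r2, and 115 and 795 in PI3Ki r1. CPM are shares of a total, so a larger ribosomal share lowers every other gene. With ribosomal protein genes left out of the total the counts became 432 higher and 593 lower and the median −0.063. Against cluster 6 in the same libraries, 447 of 2586 genes (17.3%) were over 1.5-fold higher and 462 (17.9%) over 1.5-fold lower, with a median log2 ratio of 0.0053.

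**Figure D2:**
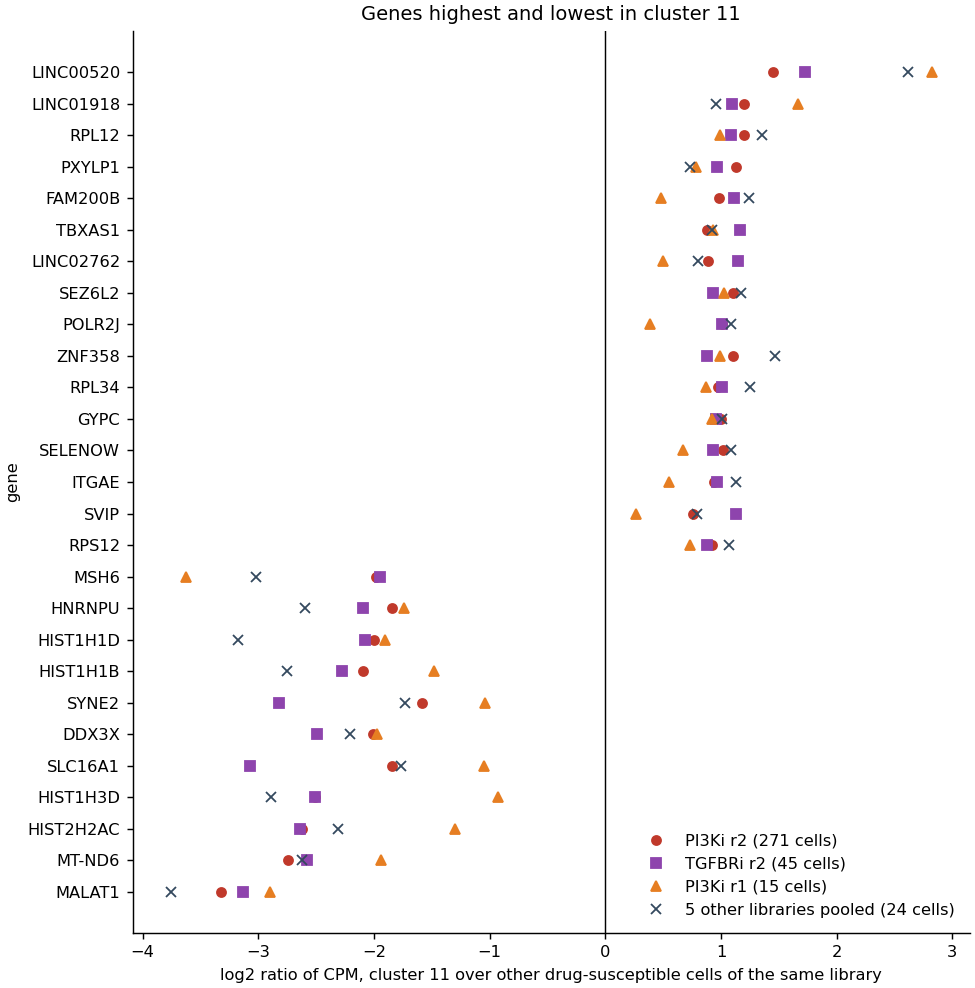
The plot gives the log2 ratio of CPM, cluster 11 over the other drug-susceptible cells of the same library, for the genes given as markers and genes at the 2 ends of the ranking, with separate points for PI3Ki r2, TGFBRi r2, PI3Ki r1 and the other 5 libraries pooled. The 4 points of each gene lie on the same side of 0, and MALAT1 is lowest by the mean of PI3Ki r2 and TGFBRi r2, at −3.22.

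All 7 genes given as markers of the cluster were higher in it than in the other drug-susceptible cells, in PI3Ki r2, in TGFBRi r2, in PI3Ki r1 and in the other 5 libraries pooled. LINC00520, a long non-coding RNA at chr14:55781132-55796731 on the minus strand, had the highest ratio of all genes over 50 CPM. It stood at 70.2 CPM in cluster 11 and 25.7 in the others in PI3Ki r2, at 113 and 34.2 in TGFBRi r2 and at 65.8 and 9.47 in PI3Ki r1. The mean log2 ratio over the first 2 of these was 1.59. Cluster 6 held 15.0 CPM in PI3Ki r2, so this gene set cluster 11 apart from cluster 6. Among the 11 drug-susceptible clusters of PI3Ki r2, cluster 11 came second to cluster 12 (85.7 CPM), which is a small cluster there.

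RPL12, a protein of the ribosomal stalk base at chr9:127447674-127451406 on the minus strand, stood at 4313 CPM against 1880 in PI3Ki r2, 3955 against 1858 in TGFBRi r2 and 3566 against 1793 in PI3Ki r1, and cluster 6 lay between at 2421 in PI3Ki r2. Its mean log2 ratio was 1.14, the highest of the ribosomal protein genes. RPL34 stood at 3948 CPM against 2004 in PI3Ki r2, 3406 against 1698 in TGFBRi r2 and 3341 against 1823 in PI3Ki r1, with a mean log2 ratio of 0.99. RPS12 stood at 13455 CPM against 7098, 10185 against 5524 and 10569 against 6376 in the same libraries, with a mean of 0.90. Cluster 11 was the highest of the 11 drug-susceptible clusters of PI3Ki r2 for all 3. Ribosomal protein genes have many processed pseudogenes, and the authors' counting can have split or dropped reads between them, so the levels of single members are uncertain.

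The other 3 markers were scarce RNAs. PXYLP1, a phosphatase that acts on the linker of proteoglycans at chr3:141228726-141367753, stood at 28.5 CPM against 13.0 in PI3Ki r2, with 9.05 in cluster 6. TBXAS1, thromboxane synthase at chr7:139777051-140020325, stood at 22.7 CPM against 12.4, with 11.5 in cluster 6. LINC02762, a long non-coding RNA at chr11:112270748-112362534, stood at 34.4 CPM against 18.6, but cluster 6 held 32.4, so it did not separate cluster 11 from cluster 6. Other enzymes of thromboxane and prostaglandin synthesis were too low to rank, and the 1 that reached 50 CPM, PTGES3, had a log2 ratio of −1.05.

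The remaining genes at the upper end had unlike roles. LINC01918, a long non-coding RNA, stood at 137 CPM against 59.8 in PI3Ki r2 and 109 against 51.3 in TGFBRi r2. POLR2J, a subunit of RNA polymerase II, stood at 560 CPM against 278 in PI3Ki r2 and 623 against 309 in TGFBRi r2, and GYPC, the membrane protein glycophorin C, at 1118 against 557 and 1127 against 582. FAM200B, SEZ6L2, ZNF358, SELENOW, ITGAE and SVIP had mean log2 ratios between 0.95 and 1.05. POLR2J has near-identical copies on the same chromosome, and its counts are uncertain for that reason.

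Below MALAT1 and MT-ND6, the lower end held histones, a DNA repair gene and nuclear RNA-binding proteins. HNRNPU, a protein that holds RNA to chromatin, stood at 143 CPM in cluster 11 and 514 in the others in PI3Ki r2, at 130 and 557 in TGFBRi r2 and at 172 and 579 in PI3Ki r1. DDX3X, an RNA helicase, stood at 33.3 CPM against 134 in PI3Ki r2, and SLC16A1, a lactate transporter, at 19.2 against 69.1. MSH6, a DNA mismatch repair protein, stood at 23.8 CPM against 94.1. SYNE2, a giant protein of the nuclear envelope, stood at 20.2 CPM against 60.6. Cluster 11 was the lowest of the 11 clusters of PI3Ki r2 for all 12 genes at this end apart from HIST1H1B.

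Messages of replication-dependent histones end in a stem-loop in place of a poly(A) tail, and most of those that could be ranked were low. Of the 71 genes of a list added after the values were seen, 7 reached 50 CPM and 6 of these were over 1.5-fold lower, with a median log2 ratio of −2.04, against 32.6% and −0.28 for all genes. HIST2H2AC, HIST1H3D and HIST1H1B reached 50 CPM only through the other cells, which favours a lower ratio, so nothing is read from that count and median. With no such minimum, the whole list summed to 1262 CPM against 1976 in PI3Ki r2 and 1437 against 2716 in TGFBRi r2. HIST2H2AC stood at 11.7 CPM against 71.9 in PI3Ki r2 and 18.4 against 118 in TGFBRi r2. HIST1H1B stood at 37.0 CPM against 158 in PI3Ki r2 and HIST1H1D at 73.4 against 294. HIST1H4C was the exception, at 943 CPM against 905 in PI3Ki r2 and a mean log2 ratio of −0.081. Histone genes lie in clusters of near-identical copies, so single members are uncertain. Within G1 cells of PI3Ki r2 the summed list was 1.61-fold higher in cluster 11. Over all phases HIST1H4C held 943 of the 1262 CPM of that sum in cluster 11 and 905 of 1976 in the others. The sum therefore does not stand for the low members, and single histones were not set out by phase.

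As a class the cytosolic ribosomal proteins were higher in cluster 11, but by unequal amounts. Of the 79 genes, 24 were over 1.5-fold higher, none over 1.5-fold lower, and 74 lay above the other drug-susceptible cells, with a median log2 ratio of 0.51. For all genes the shares were 6.13% higher, 32.6% lower and 34.8% above the other cells, with a median of −0.28. The large subunit, with a median of 0.50 over 47 genes, and the small subunit, with 0.52 over 32 genes, were alike. RPL28 (0.87) and RPL29 (0.81) followed the 3 markers, while RPL13A (−0.39), RPL31 (−0.25) and RPL38 (−0.16) were the lowest. RPL13A stood at 2611 CPM in cluster 11, 4019 in the others and 4855 in cluster 6 of PI3Ki r2. With ribosomal protein genes left out of the total, the median of the class was 0.72. Against cluster 6 the class was level, with 1 gene over 1.5-fold higher, 2 over 1.5-fold lower and a median log2 ratio of 0.072, where 17.3% and 17.9% of all genes passed. That median was −0.025 in TGFBRi r2 alone, the value left without PI3Ki r2, so its sign depended on PI3Ki r2.

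Translation factors whose messages also belong to the TOP class had a median log2 ratio of 0.21 over 18 genes, with 1 over 1.5-fold higher, EEF1D at 0.68, and 2 over 1.5-fold lower, NAP1L1 at −0.80 and EIF4B at −0.65. Over all genes 6.13% were that much higher, about the share of this list, and 32.6% that much lower. EEF1A1, the elongation factor that brings tRNA to the ribosome, stood at 5476 CPM against 4212 in PI3Ki r2. Mitochondrial ribosomal proteins, made in the nucleus and outside the TOP class, had a median of 0.12 over 15 genes.

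The 13 protein genes of the mitochondrial genome were all below the other drug-susceptible cells, with 8 over 1.5-fold lower, against 32.6% of all genes, and a median of −0.91. They ranged from MT-ND6 at −2.66 to MT-CO2, a subunit of cytochrome c oxidase, at −0.036. MT-ND5 stood at 563 CPM against 1618 in PI3Ki r2 and MT-CO1 at 10943 against 15036. Against cluster 6, 10 of the 13 were over 1.5-fold lower, where 17.9% of all genes were. NEAT1, the RNA scaffold of paraspeckles and with MALAT1 the other nuclear-retained RNA over 50 CPM, stood at 940 CPM against 2595 in PI3Ki r2, a mean log2 ratio of −1.44.

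**Figure D3:**
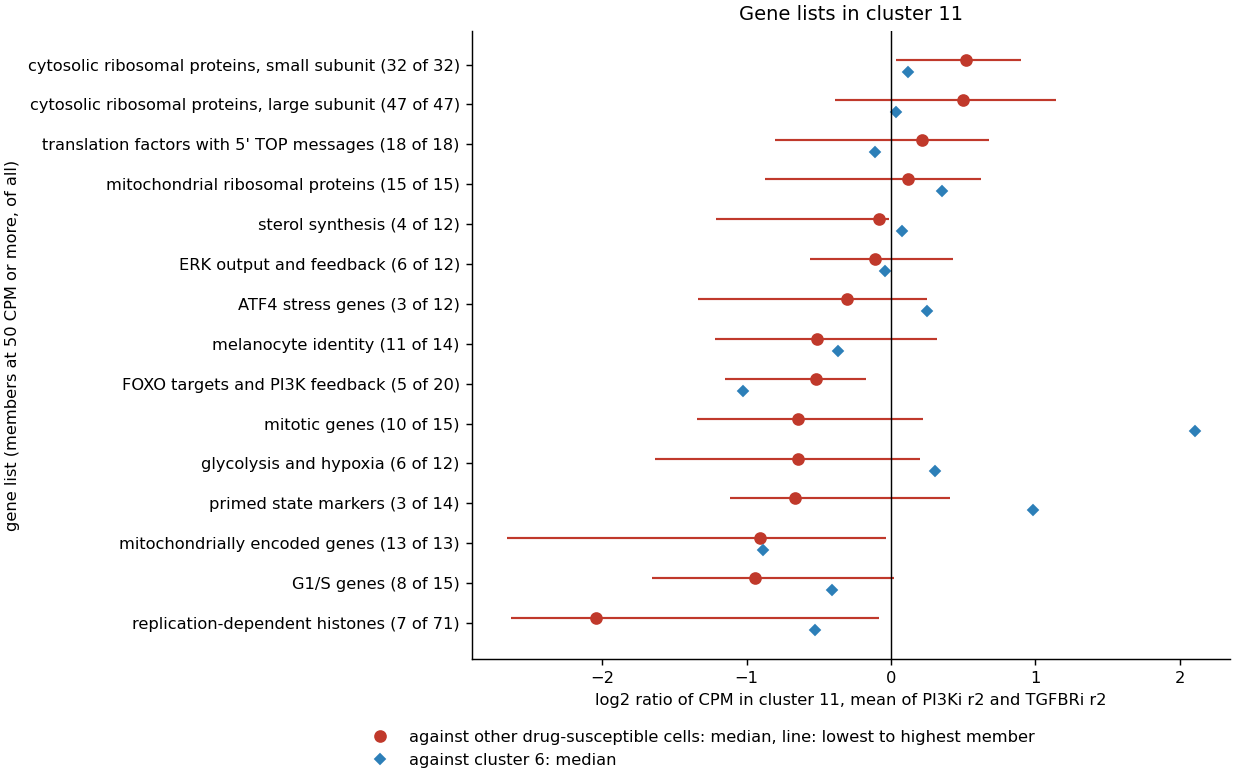
For each gene list the circle gives the median log2 ratio in cluster 11 against the other drug-susceptible cells over its members at 50 CPM or more, the line runs from the lowest to the highest member, and the diamond gives the median against cluster 6. The medians of the ribosomal protein lists lie to the right of 0 at 0.50 and 0.52 and that of the mitochondrially encoded genes to the left at −0.91.

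Melanocyte genes were present in cluster 11, some at a lower level. Of 14 genes 11 reached 50 CPM, of which 4 were over 1.5-fold lower and none higher, with a median log2 ratio of −0.51. Over all genes 32.6% were over 1.5-fold lower, so the count of 4 of 11 is near that background. PMEL, the fibril protein of melanosomes, stood at 1841 CPM in cluster 11 and 3697 in the others of PI3Ki r2, and SLC45A2, a melanosomal transporter, at 31.7 against 75.3. MITF, the master regulator of the lineage, had a log2 ratio of −0.34 and SOX10 −0.16. Of the 14 primed state markers only 3 reached 50 CPM, with 2 over 1.5-fold lower, among them SERPINE2 at 84.1 CPM against 155 in PI3Ki r2. The third, FOSL1, a subunit of the AP-1 transcription factor, had a log2 ratio of 0.41. Against cluster 6, FOSL1 stood at 63.1 and 17.5 CPM in PI3Ki r2 and at 105 and 7.29 in TGFBRi r2, where cluster 6 has 41 cells, and its log2 ratio was 1.85 and 3.69. Of the 3 markers 2 were over 1.5-fold above cluster 6, where 17.3% of all genes were, and with so few members nothing is read from that count. Of the 5 genes of the FOXO and PI3K feedback list over 50 CPM, 2 were over 1.5-fold lower and none higher, where 6.13% of all genes were higher, and TXNIP, an inhibitor of glucose uptake, was at −1.15. Of the 6 glycolysis genes 3 were over 1.5-fold lower, led by ENO1 (−1.64) with GAPDH at 0.20, and of 3 ATF4 targets 1 was, PHGDH at −1.33. With so few members these counts cannot be set apart from the 32.6% of all genes. None of the 6 genes of ERK output and feedback passed 1.5-fold in either direction.

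Marker lists of 4 other cell types gave 1 sum within, 1 below and 2 above the range of the other cells. In PI3Ki r2 the members held no counts of the leukocyte markers CD3E, CD14, ITGAM and TYROBP, and the summed list of leukocyte markers stood at 41.2 CPM, within the 32.5 to 46.5 of the other drug-susceptible cells over the 8 libraries. Fibroblast markers COL3A1, FAP and THY1 were at 0, and the list summed to 10.2 CPM against 21.2 to 35.3. Of the endothelial markers CDH5 was at 0, and the sum of 0.841 CPM was just above the 0.273 to 0.804 of the others. The keratinocyte list summed to 134 CPM against 68.2 to 84.9, all of it KRT10, whose log2 ratio was 0.94, while KRT5, KRT14, KRT1 and DSG3 were at 0.

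In its mitotic genes and its G2M share cluster 11 lay far from cluster 6 and closer to the rest. By the authors' phases its G1 and S shares were nearer to cluster 6. The summed G1/S list was also nearer to cluster 6 in PI3Ki r2. It stood at 497 CPM in cluster 11, 650 in cluster 6 and 931 in the other drug-susceptible cells. The authors' phases put 62.8% of members in G1, 10.1% in S and 27% in G2M, against 73.2%, 26.6% and 0.237% in cluster 6 and 36.2%, 35.9% and 27.9% in the other drug-susceptible cells. A rescoring of cells thinned to 5000 UMIs, which changed the scorer and the depth together, put 37.2% of members in G1, 5.63% in S and 57.2% in G2M, against 72.4%, 25.8% and 1.86% in cluster 6 and 30.6%, 29.1% and 40.3% in the others. The share in S was lower in cluster 11 than in the others by both scorings, while its G1 and G2M shares moved between them, and the parts of scorer and depth in that were not tested. Against cluster 6, 8 of 8 mitotic genes were over 1.5-fold higher, with a median log2 ratio of 2.11, against 17.3% of all genes. Members such as UBE2C and CCNB1 reached 50 CPM only through cluster 11, which favours a higher ratio, so nothing is read from that count. With no such minimum, the 15 genes of the list summed to 1033.7 CPM in cluster 11 and 273.5 in cluster 6 of PI3Ki r2. UBE2C, which with the anaphase-promoting complex ends mitosis, stood at 130 CPM in cluster 11 and 12 in cluster 6 of PI3Ki r2. CCNB1, the mitotic cyclin, stood at 58.4 against 15.2, and CDKN3 and GTSE1 at 110 against 15.9 and 115 against 12.5. UCN2, a peptide hormone of the corticotropin-releasing family, stood at 83.3 against 19.7, and FOSL1 at 63.1 against 17.5. The genes furthest below cluster 6, after MALAT1 and MT-ND6, were CYP7B1 (22.7 against 77.1 CPM), TXNIP (29.2 against 76.5), PDE3B (30.6 against 104) and HMCN1 (33.6 against 98.8).

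Against the other drug-susceptible cells both cycle lists had negative medians. Of 8 genes of the G1/S list 5 were over 1.5-fold lower, led by the replication licensing factor MCM6 at −1.66 and the sliding clamp PCNA at −1.48, and of 10 mitotic genes 6 were, with a median of −0.65, where 32.6% of all genes were that low and the median was −0.28. MALAT1, MT-ND6 and the summed ribosomal protein genes differed in the same direction within each phase, while the summed histones did not. HIST1H4C made up a large part of the histone sum, so it does not show how the histones that were low moved within a phase. Within G1 cells of PI3Ki r2 (174 members and 2326 others) MALAT1 stood at 476 CPM against 6743, MT-ND6 was 7.45-fold lower and the summed ribosomal protein genes were 1.36-fold higher. The replication-dependent histones summed to 1074 CPM in these G1 members and 667 in the other G1 cells, 1.61-fold higher in the cluster, against 1953 and 2600 in S and 1413 and 3077 in G2M, where they were lower. Within S cells (27 and 1820) MALAT1 was 8.74-fold lower and the ribosomal sum 1.44-fold higher. Within G2M cells (70 and 1292) MALAT1 stood at 902 CPM against 5284 and the ribosomal sum was 1.43-fold higher. Members called G1 did not carry G1 levels of all cycle genes, since TOP2A stood at 47.0 CPM against 9.92 there and the mitotic list at 645 against 381. Members called G2M carried less of them than other G2M cells, with CCNB1 at 113 CPM against 265 and the mitotic list at 1938 against 3721.

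Transcript length went with the ratio across genes. Of the 2853 genes, 2794 (97.9%) had a canonical transcript in GENCODE, and these were sorted by its length into 10 groups of like size. The shortest group (280 genes, 207 to 820 bases) had a median log2 ratio of 0.27 with 15.0% over 1.5-fold higher and 3.21% lower. The longest (7204 to 26829 bases) had −0.74 with 1.43% higher and 63.6% lower. Against cluster 6 the same groups had 0.35 and −0.53, and in PI3Ki r1 against the other cells 0.12 and −0.60. With ribosomal protein and mitochondrial genes left out and the rest sorted anew, the shortest group had 0.26 and the longest −0.74 against the other drug-susceptible cells. The 12 highest genes had a median transcript length of 977.5 bases and the ribosomal protein genes 785, against 2442.5 for all genes, while the 8 of the 12 lowest with a length had 4450. Genes were also split by a stretch of 8 A inside the transcript within 4 length classes. From the shortest class to the longest the medians were −0.10, −0.26, −0.41 and −0.65 with such a stretch. Without it they were 0.14, −0.29, −0.40 and −0.63. In the shortest class 31 genes had the stretch and 646 did not, with median lengths of 1152 and 947 bases. These are descriptions across genes, which are not independent replicates, and length, abundance and the ribosomal class are shared between the groups. Whether transcript length, depth or the percent of mitochondrial UMIs has a part in the list results above was not tested.

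**Figure D4:**
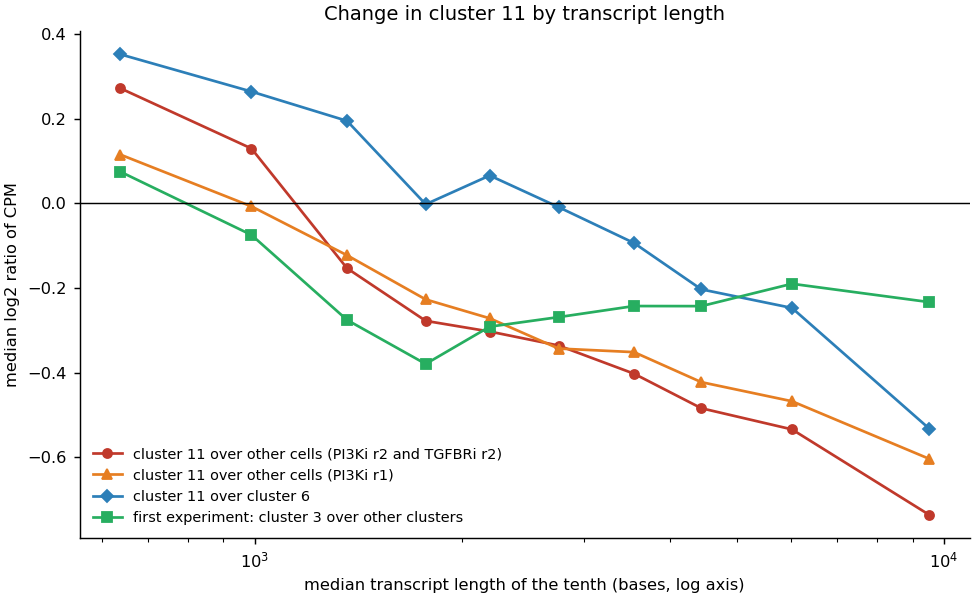
The plot gives the median log2 ratio of CPM against the median transcript length in bases, on a log axis, for 10 groups of genes sorted by length, with lines for cluster 11 against other cells in PI3Ki r2 and TGFBRi r2 and in PI3Ki r1, for cluster 11 against cluster 6, and for cluster 3 of the first experiment, described last. Values fall from 0.27 in the shortest group to −0.74 in the longest for cluster 11 against the other drug-susceptible cells.

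Lineage barcodes were amplified in a separate reaction from part of the same cDNA and did not enter the clustering. They are thus a measure that the cluster rule did not use, though not one free of a cell's depth. By the study's methods the transduction rate was kept low to avoid several barcodes in a cell. The authors also filtered barcodes further before assigning lineages. The values here are the deposited counts per cell with no such filter applied here, so they are not numbers of lineages. A lineage barcode was detected in 269 of 271 members in PI3Ki r2 (99.3%, exact interval 97.4 to 99.9) and in 95.2% of the other drug-susceptible cells, in 45 of 45 against 97.2% in TGFBRi r2 and in 15 of 15 against 98.1% in PI3Ki r1. The mean difference over these 3 libraries was 2.90 percentage points, and the exact two-sided sign-flip permutation test gave p = 0.25, the smallest that 3 libraries allow. Members were deeper cells, and a part of depth in detection was not tested. Per 10000 UMIs of the cell, barcode UMIs were 8.73 against 7.09 in PI3Ki r2, 7.06 against 7.26 in TGFBRi r2 and 17.6 against 11.1 in PI3Ki r1.

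Members of cluster 11 also had more different lineage barcodes counted per cell, a measure chosen after the data were seen and given with no test. The medians in cluster 11 and in the other drug-susceptible cells were 5.5 and 4 in Control r1, 8 and 4 in Control r2, 11 and 5 in TGFB1 r1, 7 and 6 in TGFB1 r2, 5 and 3 in TGFBRi r1, 5 and 4 in TGFBRi r2, 6 and 3 in PI3Ki r1, and 6 and 3 in PI3Ki r2. Cluster 11 was higher in 8 of 8 libraries, by 2.69 barcodes on average. In 5 of these libraries the median rests on under 10 members, and the 4 libraries of a replicate come from 1 well, so the 8 are not independent starts. Over the 3 libraries with at least 10 members the mean difference was 2.33.

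The count of barcodes was higher also at like numbers of barcode UMIs. In PI3Ki r2 the median member had 4.5 different barcodes among 5 to 9 barcode UMIs, 6 among 10 to 19, 7 among 20 to 39 and 8 among 40 to 299, while the other drug-susceptible cells and cluster 6 both had 3, 3, 4 and 5. Below 5 barcode UMIs all had a median of 2. At like total depth members had more barcodes than the other drug-susceptible cells, with 4 against 2 at 10000 to 20000 UMIs, 5 against 3 at 20000 to 30000, 7 against 4 at 30000 to 40000 and 7 against 5 at 40000 to 70000. In that deepest band the 10 cells of cluster 6 had a median of 7.5, above cluster 11. Both UMI depth and the number of barcodes thus moved with cluster 11. No doublet caller was run on these cells, and a part of droplets with more than a single cell in any of the results above was not tested.

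**Figure D5:**
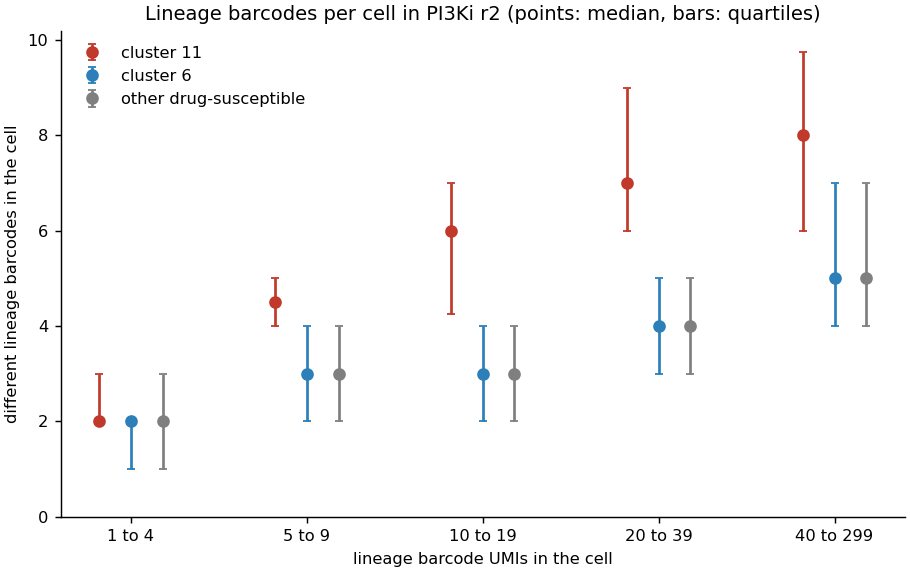
The plot gives the number of different lineage barcodes per cell (median and quartiles) by the number of lineage barcode UMIs in the cell, in PI3Ki r2, for cluster 11, cluster 6 and the other drug-susceptible cells. The curves start together at a median of 2 and reach 8 for cluster 11 and 5 for the others.

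The genes that led cluster 11 were next measured in drug-susceptible cells outside it, which the same cluster labels pick out. UMI counts were summed per library and tested with edgeR over 17912 genes in all 8 libraries with r1 and r2 as a block, and the 3 contrasts share the Control libraries. By the study's methods the 2 libraries of a treatment were carried from the sort through the treatment side by side as separate samples. The p-values rest on the spread left after the terms for treatment and for r1 or r2, pooled over the 8 libraries. PI3Ki against Control called 1027 genes higher (5.73%) and 1150 lower (6.42%) at an adjusted p under 0.05. TGFBRi called 239 (1.33%) and 310 (1.73%), and TGFB1 called 1571 (8.77%) and 1182 (6.60%).

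Ribosomal protein genes, the class that gives cluster 11 its name, were then counted under PI3Ki outside it. Of the 79, 60 were called higher and none lower, against 5.73% and 6.42% of all genes, with a median log2 fold change of 0.29. Without cluster 6 cells 10 were called, without PI3Ki r2 8, without Control r2 10, without Control r1 22 and with no replicate block 17, so the count depends on cluster 6 and on single libraries. Under TGFBRi 1 was called higher and none lower (median 0.09), and under TGFB1 none higher and 1 lower (median 0.01).

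RPS12 stood at 5444 and 5561 CPM in Control r1 and r2 and at 6376 and 7098 in PI3Ki r1 and r2. Its log2 fold change was 0.38 (SE 0.079, adjusted p = 0.0022 in edgeR), which missed the threshold without PI3Ki r2 (0.26, adjusted p = 0.13) and without Control r2 (0.37, adjusted p = 0.057). RPL34 stood at 1529 and 1434 CPM in Control and 1823 and 2004 in PI3Ki, a log2 fold change of 0.46 (SE 0.079, adjusted p = 0.00038), with 0.33 and an adjusted p of 0.054 without PI3Ki r2. RPL12 stood at 1668 and 1512 CPM in Control and 1793 and 1880 in PI3Ki, a log2 fold change of 0.30 (SE 0.075, adjusted p = 0.010). That call was lost with no replicate block (adjusted p = 0.087), without PI3Ki r2 (0.21, adjusted p = 0.28), without Control r2 (0.20, adjusted p = 0.38) and without cluster 6 cells (0.16, adjusted p = 0.24).

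LINC02762 rose by a log2 fold change of 0.77 (adjusted p = 1.54e-06) and TBXAS1 by 0.54 (adjusted p = 7.61e-05). PXYLP1, at 0.20, missed the threshold (adjusted p = 0.098) and passed it without TGFBRi r1 (adjusted p = 0.040) or TGFBRi r2 (adjusted p = 0.036). LINC00520, the gene with the highest ratio in the cluster, was not called under PI3Ki, with −0.10 (SE 0.12, adjusted p = 0.67). Outside the cluster it stood at 13.4, 13.2, 13.3 and 9.47 CPM in r1 and at 25.1, 20.8, 34.2 and 25.7 CPM in r2 of Control, TGFB1, TGFBRi and PI3Ki. It was thus higher in r2 than in r1 under every treatment, as were the cell numbers of cluster 11 apart from TGFB1 with 3 in each. LINC01918, high in the cluster, fell under PI3Ki by 0.46 (adjusted p = 0.00074), a call lost with no replicate block (adjusted p = 0.058) and without PI3Ki r1 (adjusted p = 0.056).

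Of the 12 lowest genes of cluster 11, PI3Ki called 4 lower outside it, all of them histones, against 8.38% lower of the 2853 genes. With so few members nothing is read from that count. MALAT1 had a log2 fold change of 0.072 (adjusted p = 0.70) and MT-ND6 −0.062 (adjusted p = 0.64), while HIST2H2AC (−0.51), HIST1H1B (−0.45), HIST1H1D (−0.39) and HIST1H3D (−0.39) were called lower. With no replicate block HIST1H1B kept its call and HIST2H2AC (adjusted p = 0.33), HIST1H1D (0.054) and HIST1H3D (0.18) lost it. Without cluster 6 cells HIST2H2AC kept its call and HIST1H1B (adjusted p = 0.22), HIST1H1D (0.19) and HIST1H3D (0.46) lost it. Without Control r2 the same 3 lost it, at adjusted p of 0.070, 0.11 and 0.065, and HIST1H1D (0.053) and HIST1H3D (0.27) lost it without PI3Ki r2. Of the 175 genes over 1.5-fold higher in cluster 11, PI3Ki called 45 higher (25.7%) and 3 lower, against 10.1% higher of the 2853 genes. The 175 include 24 ribosomal protein genes, so this share in part repeats the count of that class, and it was not computed without them. Other cells of PI3Ki r2 also enter both the ratios and this contrast. The 45 became 15 without cluster 6 cells, 12 with no replicate block, 10 without PI3Ki r2 or Control r2, 20 without Control r1 and 30 without PI3Ki r1. Of the 930 over 1.5-fold lower it called 47 higher (5.05%) and 101 lower (10.9%), against 8.38% lower of the 2853. The 101 became 59 without cluster 6 cells, 34 with no replicate block, 40 without PI3Ki r1, 43 without PI3Ki r2, 58 without Control r1, 48 without Control r2, and 168 and 158 without TGFBRi r1 and TGFBRi r2.

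Among called genes with a mean of at least 50 CPM, the 4 that rose most under PI3Ki in the other cells were ID3, COL9A3, TXNIP and APOE. ID3, an inhibitor of basic helix-loop-helix factors, rose by a log2 fold change of 1.75 under PI3Ki (adjusted p = 4.38e-13), and within PI3Ki r2 it stood at 150 CPM in cluster 11, 148 in the other drug-susceptible cells and 218 in cluster 6. COL9A3, TXNIP and APOE rose by 0.96, 0.94 and 0.74 under PI3Ki. In PI3Ki r2 they stood at 90.1, 29.2 and 195 CPM in cluster 11, at 122, 59.6 and 285 in the other cells and at 181, 76.5 and 389 in cluster 6, so that cluster 11 was the lowest of these for each. In the same range of levels BNIP3, DDIT4, FN1 and LDHA had the largest falls, with −1.44, −1.42, −1.11 and −0.87. Of these, BNIP3 stood at 84.7 CPM in cluster 11 and 80.7 in the other cells of PI3Ki r2, and LDHA at 308 and 465. Glycolysis and hypoxia genes were called lower in 11 of 11 and mitotic genes in 12 of 15, against 6.42% of all genes. Without cluster 6 cells the same counts were 11 and 0. The mitotic count was 4 with no replicate block and without Control r1, PI3Ki r1 or PI3Ki r2.

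Cells like cluster 11 were then looked for in untreated WM989 of the first experiment, which holds 12531 cells in 8 wells and took no part in its clustering. By the study's methods these cells came from a mixed and an EGFR- and NGFR-high sort, and each was divided over more than 1 well of the chip, so wells are in part repeat loadings of the same cells and not independent replicates. RPL12, RPL34 and RPS12 were all highest there in that experiment's own cluster 3, chosen after the values were seen, which holds 1215 drug-susceptible cells. RPL12 stood at 2367 CPM in cluster 3 and 1651 in the other drug-susceptible cells, a ratio of 1.43 with 1.29 to 1.47 over the 6 wells with at least 20 cells of that cluster. RPL34 stood at 1671 CPM against 1253 (1.33, wells 1.10 to 1.39) and RPS12 at 7886 against 5391 (1.46, wells 1.18 to 1.49), and each was above 1 in 6 of 6 wells. MALAT1 was lower, at 5197 CPM against 7301, below in 6 of 6 wells, but by a ratio of 0.712 that is far from that in cluster 11. Clusters 5 and 6 there held less MALAT1 than cluster 3, at 4385 and 4805 CPM, and clusters 4 and 10 held the most, at 9688 and 13142. HNRNPU stood at 216 CPM against 410, the lowest of the drug-susceptible clusters there. MSH6 stood at 48.3 against 82.5, with clusters 7 and 10 lower still at 28.9 and 43.2.

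Of the 175 genes over 1.5-fold higher in cluster 11, 171 were in the table of the first experiment and 167 of these (97.7%) were higher in its cluster 3, against 869 of 2818 (30.8%) for all genes. Of the 930 lower genes, 924 were in it and 46 (4.98%) were higher in cluster 3. Since cluster 3 was picked for its levels of leading genes, these shares restate that choice in part and are no independent support. In the other 7 drug-susceptible clusters of the first experiment between 12.9% and 53.2% of the 171 genes were higher, cluster 10 having the most. The median log2 ratios were 0.33, −0.59 and −0.19 for the higher, the lower and all genes. Other features set the clusters apart. The ribosomal share of cluster 3 had a median of 24.2%, below the 25.6% of cluster 10 and the 24.7% of cluster 4 there. The summed ribosomal protein genes were highest in cluster 10, and in cluster 3 their ratio of 1.16 was above 1 in 5 of 6 wells. LINC00520 stood at 71.6 CPM in cluster 3 against 40.3, above 1 in 5 of 6 wells, yet it was highest in that experiment's cluster 10, at 130 CPM. The percent of mitochondrial UMIs in cluster 3, with a median of 18.5, was the highest of the 8 drug-susceptible clusters there, whereas cluster 11 had a low one. By transcript length the median log2 ratio of cluster 3 was 0.07 in the shortest group and −0.23 in the longest, with its lowest value of −0.38 in the group ranked 4 by length, so that the steady fall of cluster 11 was not seen.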

How the data were processed

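The authors ran Cell Ranger on hg38 to turn 3′ droplet libraries into a deposited matrix of UMI counts, and kept cells by genes per cell and percent of mitochondrial reads. The version of Cell Ranger and its annotation were not given in the sources used here. The deposited cell labels give library, cluster, Phase and lineage barcode counts, and the percent of mitochondrial UMIs as the authors computed it. The highest percent of any cell was 24.991.

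Within each library, the UMIs of a cluster were added up and scaled to CPM. Log2 ratios used 0.5 added counts, libraries with at least 20 members and genes with at least 50 CPM on either side. Exact Clopper-Pearson intervals at 95% cover counting error only. Thinning to 5000 UMIs left out 33 cells, none in cluster 11. No doublet caller was run. edgeR 4.0.16 in R 4.3.3 used filterByExpr, TMM, terms for treatment and r1 or r2, the quasi-likelihood test and Benjamini-Hochberg adjustment. It was tested on simulated data. The SE is the log2 fold change divided by the square root of F. DESeq2 1.42.0 was an alternative. Phase was rescored with scanpy 1.11.5 and the gene lists of Seurat 5.3.0. Other steps used Python 3.11.15, numpy 2.4.6, scipy 1.17.1 and pandas 2.3.3.

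The study's methods state that cells of a single well were split over the 4 plates in each of 2 parallel samples, so r1 and r2 pair the libraries and were the block. The r2 minus r1 differences correlated across 2776 genes between treatments, with r from 0.02 (Control and TGFBRi) to 0.71 (Control and PI3Ki), so the TGFBRi pair deviated least with the others.

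The genes named are the 7 markers given with the cluster, the 12 highest and 12 lowest by mean log2 ratio with the same side in both libraries, the 6 at each end against cluster 6, members of the lists, and the 4 largest rises and falls of PI3Ki among called genes with a mean of at least 50 CPM. Members and lists were chosen with earlier results of these data known, and the histone list, the cluster of the first experiment and the number of lineage barcodes were chosen after their values were seen. Some genes that these rules and lists name are not reported here. Promoters come from RefSeq and lengths from GENCODE, matched by symbol. Chromatin libraries and WM983B cells were not used here.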

Additional observations from a re-analysis of the deposited data

How the results depend on the processing

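Cluster 11 rests on 271 cells of PI3Ki r2, and the 5 smallest libraries gave 24 members in all, so values per library outside PI3Ki r2, TGFBRi r2 and PI3Ki r1 carry large counting error. The share in PI3Ki r2 was 6.96% of G1 cells. Against the other drug-susceptible cells, with ribosomal protein genes left out of the total 432 genes were over 1.5-fold higher and 593 lower, with medians of −0.063 for all genes and 0.72 for ribosomal protein genes. The ribosomal median was 0.43 in G1 cells and 0.48 in cells of at least 20000 UMIs, an alternative chosen after seeing the data, which also gave 109 higher genes. Thinning, equal weights of clusters and means over cells kept each of these within 1.5-fold or the spread. Leaving out a library gave 183 to 196 higher and 890 to 963 lower genes, and the ribosomal median ranged from 0.48 to 0.52. Against cluster 6 that median ranged from −0.025 to 0.18. The number of lineage barcodes was 2.33 higher in the 3 libraries with at least 10 members.

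Outside cluster 11, PI3Ki called 244 genes higher and 322 lower with no replicate block, while 17 ribosomal protein genes were higher. The pairing follows from the shared well. With no block TGFBRi called 16 higher and 35 lower, with 0 ribosomal protein genes, and TGFB1 called 793 and 430. For PI3Ki, DESeq2 called 634 higher. The 4 libraries of Control and PI3Ki alone gave 2220 higher and 2605 lower. Without cluster 6 cells 592 were higher with 10 ribosomal protein genes, and UBE2C turned from −0.20 to 0.075. Leaving out each library gave 277 to 1584 higher, 369 to 1843 lower and 8 to 70 ribosomal protein genes. A lone library is then assumed to vary like the others. Among single genes tested under all alternatives, 40 values missed the threshold that the reported fit passed and 12 passed it newly. Without the whole of r1 or r2 no spread is left, so no test was possible. The causes were not tested.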
